A study of Mus musculus with 6 samples.

Results

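The mitochondrial ribosomal protein genes were taken as the rows of the count table whose gene symbol began with Mrpl or Mrps and a digit, with a total of at least 60 counts over the 6 libraries. They were 77 of the 24391 genes in the table, 48 with an Mrpl symbol and 29 with an Mrps symbol. All 77 reached the minimum, the lowest total being 869 counts for Mrpl14, and all 77 were among the 15937 genes tested. No gene therefore lay near the threshold on either side, and no member was lost to the filter on low counts.

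RNA was sequenced from brachiocephalic arteries with atherosclerotic lesions, with 3 animals in each group. The groups were wild type (WT) mice and mice with the genotype label Col15a1 -/- (called KO here). The product of Col15a1 is type XV collagen, which is found at basement membranes. Both groups had a C57BL/6 background and were fed a Western diet for 18 weeks. The series title describes the deletion as restricted to smooth muscle cells, while the genotype label names no cell type. Col15a1 RNA was still counted in every KO library, as given below. The driver of the deletion, the age of the animals and any other allele that both groups may carry are not given in the sources used here.

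Mitochondria hold their own ribosomes, which translate the few mRNAs encoded by mitochondrial DNA into core subunits of the respiratory chain. Their RNA comes from mitochondrial DNA, while their proteins are encoded in the nucleus, made in the cytosol and imported. Part of these proteins have counterparts in the bacterial ribosome, and part were added in the mitochondrial lineage. Arterial smooth muscle, macrophages and the brown fat around arteries all contain mitochondria, in different amounts. The question here was whether genes for the mitochondrial ribosome differed between KO and WT arteries by as much as genes for other mitochondrial functions, among them the respiratory chain that these ribosomes help to build.

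Library totals ran from 22223584 to 26982005 counts, and the members together took 0.107% (WT 3) to 0.142% (KO 3) of them. Col15a1 was at 574, 407 and 501 CPM (counts scaled to a common library size) in WT 1, WT 2 and WT 3, and at 193, 198 and 91.0 CPM in KO 1, KO 2 and KO 3, a log2 fold change of -1.62 (SE 0.33). DESeq2 gave it an adjusted p of 0.00219, and edgeR's quasi-likelihood test one of 0.587. Sympathetic neuron transcripts set WT 2 and KO 3 apart, as their 12 markers summed to 4567 and 8706 CPM there and to 314 to 473 CPM elsewhere. The labels name smooth muscle cells, epithelial cells and macrophages. The 7 smooth muscle markers summed to 5340 to 14179 CPM and the 11 macrophage markers to 806 to 2768 CPM, while 4 epithelial genes were at 0.172 to 1.57 CPM (Epcam), 0.259 to 3.14 CPM (Krt8), 1.47 to 8.99 CPM (Cdh1) and 3.43 to 10.6 CPM (Krt18). In whole tissue, fewer cells of a type and less RNA per cell cannot be told apart.

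Most mitochondrial ribosomal protein genes were slightly higher in KO arteries, but none passed the adjusted threshold. A positive log2 fold change was found for 66 of 77 members (85.7%), beside 60.9% of all genes tested. The median log2 fold change of the members was 0.13, beside 0.068 over all genes tested, and the median SE of a member was 0.16. The members spanned a narrow range, from -0.28 for Mrpl52 to 0.40 for Mrps36. The middle of the distribution, from the first to the third quartile, lay between 0.061 and 0.24. In edgeR 0 members passed an adjusted p of 0.05, where 0% of all genes did. DESeq2 also called 0 members, where it called 0.422% of all genes. At an unadjusted p under 0.05 edgeR gave 2 members (2.60%), both higher, while 8% of all genes reached that level, 4.02% higher and 3.98% lower.

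The median of the members depended on single libraries, and so did that of all genes tested. Without WT 3 the median was 0.037 with 47 members higher, and without KO 3 it was 0.050 with 48 higher. The median of all genes tested was then -0.018 and -0.0037. The members' median minus that of all genes was 0.055 without WT 3 and 0.054 without KO 3, beside 0.060 with all libraries. Without both WT 2 and KO 3 the members' median was 0.035, with 46 members higher, beside 0.0025 for all genes, a difference of 0.032.

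**Figure D1:**
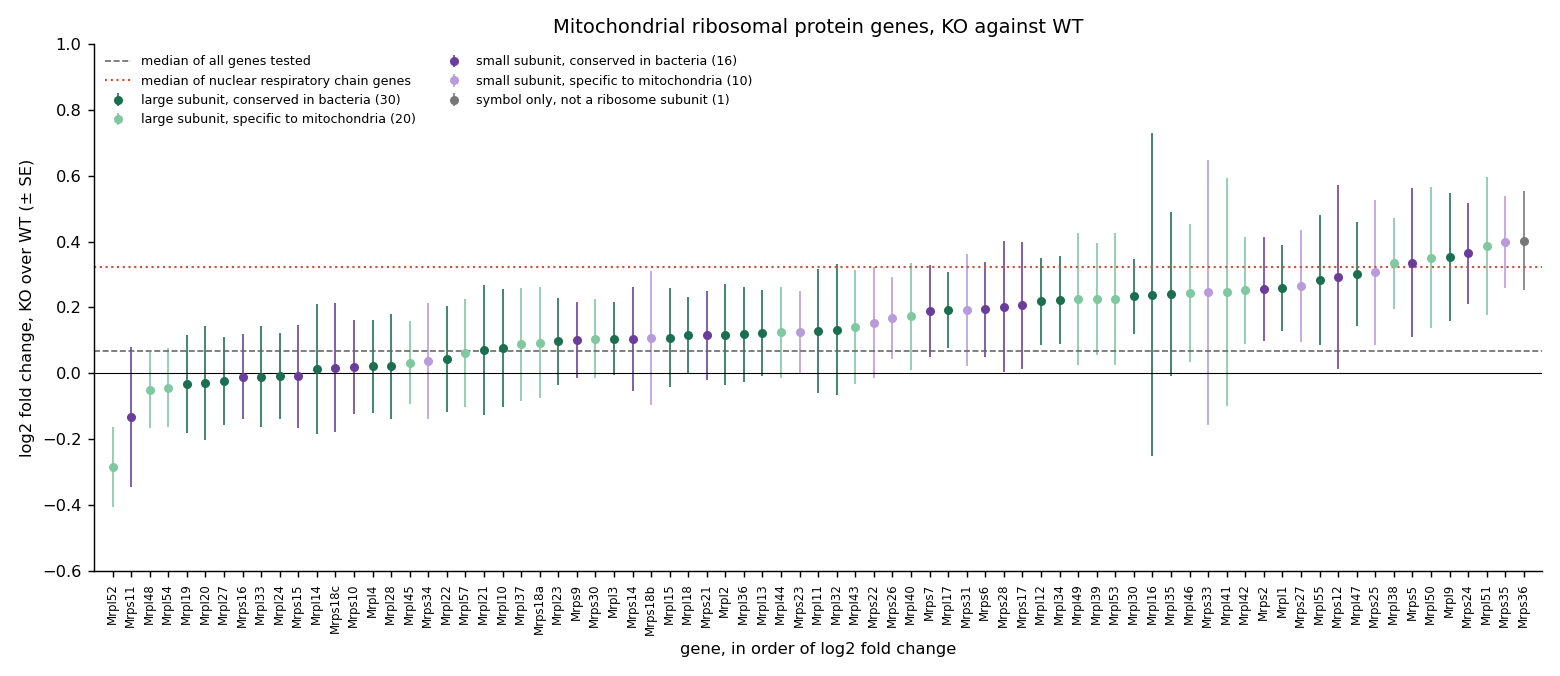
Log2 fold change of KO over WT for each of the 77 genes (points, in order), with bars of 1 SE from the edgeR fit and colours for the subunit group. The dashed and dotted lines mark the medians of all genes tested (0.068) and of the nuclear respiratory chain genes (0.32), and 66 points lie above 0.

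For 13 members every KO library lay above every WT library, and for 1 member, Mrpl52, every KO library lay below. These are 16.9% and 1.30% of the members, beside 8.33% and 8.38% of all genes tested. The excess of members above depended on the setting. With total counts 4 of 77 members lay above, beside 5.92% of all genes, and without WT 3 it was 7, beside 8.04%. Without KO 3 it was 13, beside 14.9%, and without WT 2 it was 21, beside 13.7%. For 3 libraries against 3, an exact permutation test of a single gene cannot give a p below 0.1.

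Among the proteins of the small subunit, Mrps35 had the smallest p. It encodes a protein that bacterial ribosomes lack and lies at chr6:146991292-147019424 on the plus strand (mm9). It was at 8.91, 9.18 and 10.2 CPM in WT 1 to WT 3 and at 11.2, 12.9 and 13.1 CPM in KO 1 to KO 3. The groups did not overlap, with WT 3 and KO 1 nearest to each other. The log2 fold change was 0.40 (SE 0.14), with an unadjusted p of 0.0288 and an adjusted p of 0.587 by edgeR's quasi-likelihood test. The adjusted p ran from 0.405 to 1.00 over the other settings tried.

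Mrps24 encodes the counterpart of the bacterial protein S3, which lines the path where mRNA enters the ribosome, at chr11:5603986-5607702 on the minus strand (mm9). It was at 10.6, 8.94 and 11.1 CPM in WT 1 to WT 3 and at 11.9, 14.6 and 12.9 CPM in KO 1 to KO 3. All KO libraries were above all WT libraries, and KO 2 was highest. Its log2 fold change was 0.36 (SE 0.15) with an unadjusted p of 0.0535 in edgeR's test.

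In the small subunit as a whole, 13 of 16 proteins with bacterial counterparts were higher, with a median log2 fold change of 0.15. All 10 of those specific to mitochondria were higher, at a median of 0.18 and a lowest value of 0.037 (Mrps34), but 9 of 10 were with upper-quartile scaling or total counts, where Mrps34 was at -0.0023 and -0.017. Without KO 3, 7 of these 10 were positive, and the medians of both groups were 0.045 and 0.066. Without WT 3 they were 0.047 and 0.066. The lowest small subunit gene was Mrps11, which encodes the counterpart of bacterial S11. It was at 8.96, 7.53 and 8 CPM in WT 1 to WT 3 and at 5.56, 8.16 and 8.60 CPM in KO 1 to KO 3. The groups overlapped, and only KO 1 lay below the WT libraries. Its log2 fold change was -0.13 (SE 0.21), and -0.25 (without KO 3) to -0.031 (without KO 1) with a library left out.

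Mrps36 had the highest log2 fold change of the 77, but its protein is known as a component of the oxoglutarate dehydrogenase complex of the citric acid cycle rather than of the ribosome. It lies at chr13:101505895-101514614 on the minus strand (mm9). It was at 5.32, 6.05 and 5.41 CPM in WT 1 to WT 3 and at 7.29, 7.33 and 7.57 CPM in KO 1 to KO 3. The KO libraries lay close together and above all WT libraries. The log2 fold change was 0.40 (SE 0.15), with an unadjusted p of 0.0356 and an adjusted p of 0.602 in edgeR's test. The 2 members with an unadjusted p under 0.05 were thus 1 ribosomal protein gene, Mrps35, and 1 gene that shares only the symbol.

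In the large subunit, 25 of 30 proteins with bacterial counterparts were higher, with a median log2 fold change of 0.12. Of those specific to mitochondria 17 of 20 were higher, with a median of 0.16. This group includes Mrps30 and Mrps18a, which sit in the large subunit despite their symbols. No gene of the large subunit had an unadjusted p under 0.05 in edgeR's test. Without WT 3, 15 of the 30 and 13 of the 20 were positive, with medians of 0.00061 and 0.042. Without KO 3 the medians were 0.050 and 0.047.

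Mrpl38 encodes a protein specific to mitochondrial ribosomes, at chr11:115993131-116000182 on the minus strand (mm9). It was at 14, 16.4 and 16.7 CPM in WT 1 to WT 3 and at 17.8, 19.4 and 22.0 CPM in KO 1 to KO 3. The groups did not overlap, and its log2 fold change was 0.33 (SE 0.14), with an unadjusted p of 0.0516 in edgeR's test. Mrpl30, the counterpart of bacterial L30, was at 22.3, 22.2 and 20.9 CPM in WT and at 24.4, 24.3 and 28.3 CPM in KO, in the order of the replicate numbers. Its groups did not overlap either, with a log2 fold change of 0.23 (SE 0.11), which was 0.13 without WT 3.

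Mrpl1 and Mrpl47, which encode the counterparts of bacterial L1 and L29, had KO libraries above all WT libraries, with log2 fold changes of 0.26 and 0.30. Without WT 3 these were 0.12 and 0.15. Mrpl51 had the highest log2 fold change of the large subunit, 0.39 (SE 0.21), but its groups overlapped. It was at 27.5, 26.0 and 20.4 CPM in WT 1 to WT 3 and at 26.2, 29.8 and 40.6 CPM in KO 1 to KO 3. KO 1 lay below WT 1, and KO 3 was far above the rest. Its log2 fold change was 0.19 without WT 3 and 0.18 without KO 3. Mrpl12, whose protein is part of the ribosomal stalk and also binds mitochondrial RNA polymerase, had a log2 fold change of 0.22 (SE 0.13), or 0.098 without WT 3 and 0.13 without KO 3, and its groups overlapped.

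Mrpl52, which encodes another large subunit protein that bacteria lack, went the other way. It lies at chr14:55045746-55048587 on the plus strand (mm9). It was at 19.7, 18.3 and 20.2 CPM in WT 1 to WT 3 and at 17.4, 16.0 and 14.4 CPM in KO 1 to KO 3. Every KO library was below every WT library, and KO 3, the highest library for most other members, was the lowest here. The log2 fold change was -0.28 (SE 0.12), with an unadjusted p of 0.0565 and an adjusted p of 0.624 in edgeR's test. It was negative under each other setting tried, from -0.42 to -0.22. The next lowest large subunit genes were Mrpl48 at -0.05, Mrpl54 at -0.04, and Mrpl20 and Mrpl19 at -0.03, with SEs of 0.12 to 0.17.

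**Figure D2:**
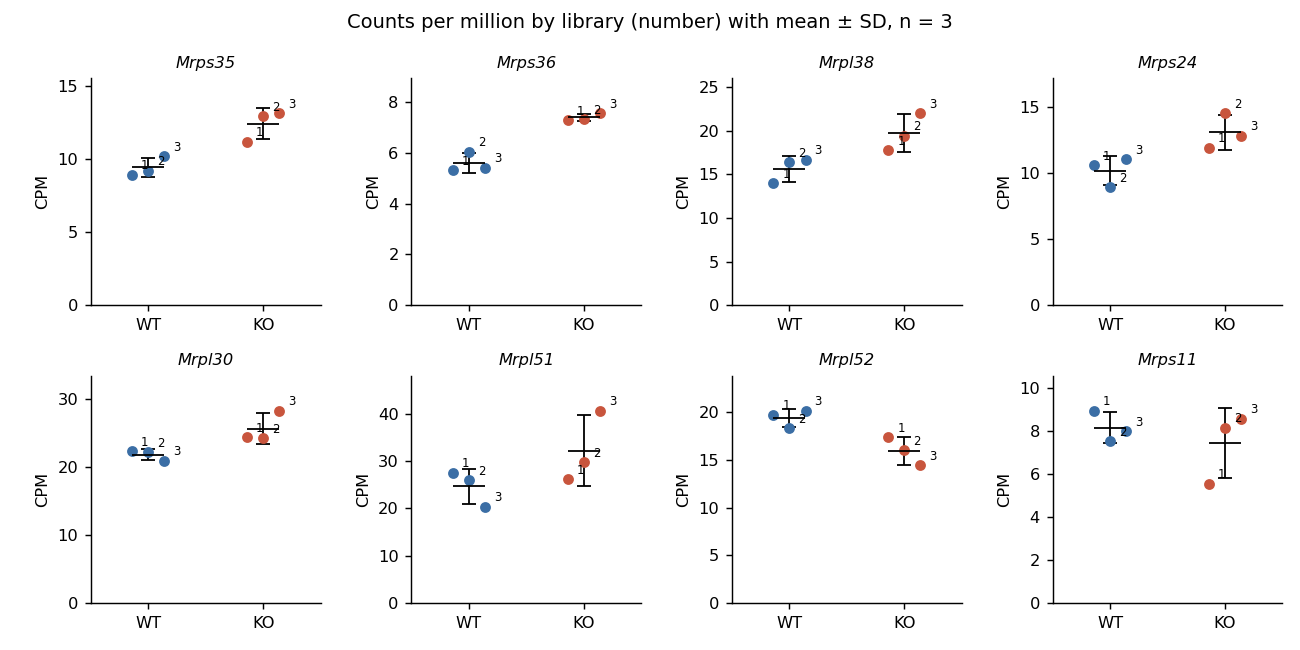
CPM in each library (points, numbered by replicate) for 8 of the genes, with the mean and SD of the 3 libraries of each group (bars) on axes that start at 0. The groups do not overlap for Mrps35, Mrps36, Mrpl38, Mrps24, Mrpl30 and Mrpl52, the last with KO below, and they overlap for Mrpl51 and Mrps11.

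The 3 paralogs Mrps18a, Mrps18b and Mrps18c encode related proteins that take different places in the ribosome, the first in the large and the other two in the small subunit. Their log2 fold changes were 0.093, 0.11 and 0.017, with SEs of 0.17, 0.20 and 0.20. Their direction depended on the libraries used, with values of -0.096, -0.086 and -0.11 without WT 2 and KO 3. Mrps18c was also negative with total counts, upper-quartile scaling or DESeq2 size factors (-0.0081 to -0.042), so no direction can be given for it. All 3 sets of groups overlapped.

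The members differed widely in level. As RPKM (CPM per kilobase of exon, a level that can be compared between genes), the highest mean levels over the 6 libraries were those of Mrpl33 (61.9), Mrps21 (44.6), Mrpl52 (42.9), Mrpl20 (38.1) and Mrpl30 (34.3). The lowest were those of Mrpl35 (4.49), Mrpl1 (4.29), Mrpl17 (3.92), Mrps25 (3.67) and Mrpl19 (3.04). Among these 10 genes, log2 fold changes ran from -0.28 (Mrpl52) to 0.31 (Mrps25, with 0.14 without WT 3, 0.11 without KO 3 and 0.49 without WT 2), and neither end of the range of levels had a single direction. Exon lengths are those of the gene models in the count table, so a long untranslated stretch in a model lowers the RPKM of its gene.

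By library, the mean log2 CPM of the members was 3.84, 3.86 and 3.74 in WT 1 to WT 3 and 3.81, 3.90 and 4.14 in KO 1 to KO 3. The groups overlapped, since KO 1 was below WT 1 and WT 2. KO 3 was the highest library for 54 members (70.1%), beside 34.7% of all genes tested. WT 3 was the lowest library for 35 members (45.5%), beside 16.1% of all genes tested. KO 3 was also the library with the most neuronal transcripts and the fewest macrophage and cell cycle transcripts, and the part of these in the result was not tested.

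WT 2 and KO 3, the libraries rich in neuronal transcripts, were the 2 highest libraries for 23 of 77 members (29.9%), beside 22.2% of all genes tested and 9 of 80 nuclear respiratory chain genes (11.2%). The pattern was widest in Mrpl16, named with the next gene after their values were seen. Mrpl16, the counterpart of bacterial L16, was at 14.1, 27.3 and 12.1 CPM in WT 1 to WT 3 and at 12.5, 15.7 and 35.1 CPM in KO 1 to KO 3. WT 2 and KO 3 were well above the other 4 libraries, and the log2 fold change of 0.24 had an SE of 0.49. Mrps33, a small subunit protein gene, was at 5.18, 7.97 and 4.95 CPM in WT and at 4.87, 5.19 and 11.4 CPM in KO, in the same order of replicates. Without WT 2 and KO 3 its log2 fold change was -0.018, instead of 0.25.

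**Figure D3:**
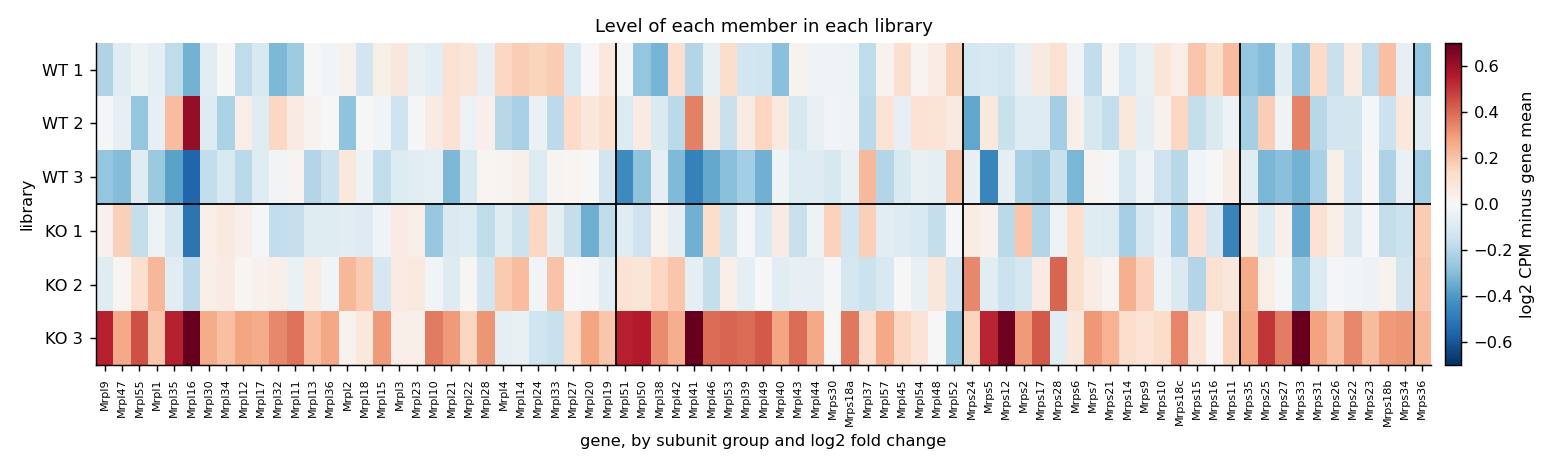
Log2 CPM of each gene in each library minus the gene's mean over the 6 libraries (colour, with the scale ending at 0.7 in each direction), with genes grouped by subunit (vertical lines) and libraries by genotype (horizontal line). The row of KO 3 is the highest for 54 of the 77 genes and that of WT 3 the lowest for 35.

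Nuclear genes of the respiratory chain, whose products assemble with the proteins made by these ribosomes, were higher in KO by more than the members were. All 80 tested were higher (77 with sample quality weights), and their median log2 fold change was 0.32. The number higher was 76 without KO 3, 74 without WT 2 and KO 3, and 73 without WT 3. Of the 80 genes, 22 had an unadjusted p under 0.05 in edgeR's test, all higher (27.5%), beside 4.02% of all genes tested. For 34 (42.5%) the KO libraries lay above all WT libraries, beside 8.33% of all genes. Without WT 3 the median was 0.18 and 5 genes reached that p, and without KO 3 the median was 0.20 and 13 did. Of all genes, 292 of 15913 were higher at that p without WT 3, and 597 of 15904 without KO 3. Uqcr10, a subunit of complex III, was at 36.4, 35.9 and 34.5 CPM in WT 1 to WT 3 and at 47.2, 50.4 and 55.5 CPM in KO 1 to KO 3. Ndufab1, an acyl carrier protein and subunit of complex I, was at 9.5, 10.7 and 9.89 CPM in WT and at 14.4, 13.0 and 15.3 CPM in KO. Both had groups that did not overlap, with log2 fold changes of 0.52 (SE 0.10) and 0.51 (SE 0.13).

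The distance between both lists was larger in every KO library than in every WT library. The mean log2 CPM of the respiratory chain genes minus that of the members was 1.41, 1.27 and 1.31 in WT 1 to WT 3, and 1.48, 1.55 and 1.58 in KO 1 to KO 3. The group means were 1.33 ± 0.068 in WT and 1.54 ± 0.048 in KO (SD, n = 3 each). A difference within a library does not depend on how libraries are scaled to each other. It is given as a description without a test, since the lists were chosen with results of these data known. Since all KO values lay above all WT values, leaving out WT 2 and KO 3 could not change their order and is no separate check.

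Citric acid cycle and fatty acid oxidation genes were further from the members still. All 17 citric acid cycle genes were higher, at a median log2 fold change of 0.46. Of them 15 (88.2%) had an unadjusted p under 0.05 in edgeR's test (8 without WT 3), while 4.02% of all genes were higher at that p. All 19 fatty acid oxidation genes were higher (18 with sample quality weights), with a median of 0.63, and 14 reached that level. Sucla2, a subunit of succinyl-CoA synthetase, had a log2 fold change of 0.77 (SE 0.12), and Acadm, the medium-chain acyl-CoA dehydrogenase, 0.87 (SE 0.22). DESeq2 called Sucla2 (adjusted p 0.000121), Idh3a (0.00401) and Uqcr10 (0.0143), while it called none of the 77 members. The mean log2 CPM of the fatty acid oxidation genes minus that of the members was 2.03, 1.36 and 1.91 in WT 1 to WT 3 and 2.45, 2.25 and 2.06 in KO 1 to KO 3. The groups did not overlap, but KO 3 was only just above WT 1. With WT 2 and KO 3 left out, medians were 0.21 for the respiratory chain, 0.34 for the citric acid cycle and 0.46 for fatty acid oxidation, beside 0.035 for the members.

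**Figure D4:**
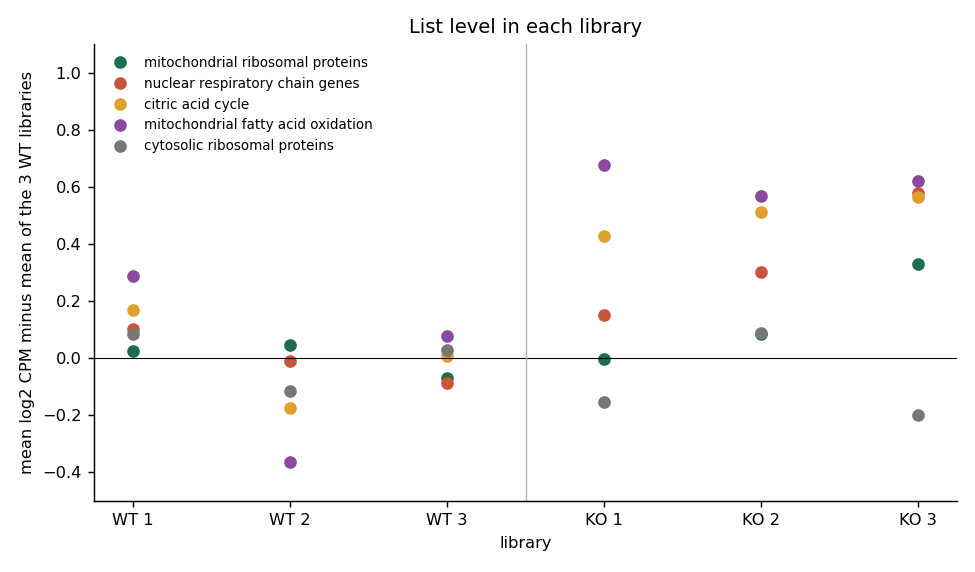
Mean log2 CPM of 5 gene lists in each library (points), each minus the mean of its own WT libraries. The members span -0.070 to 0.045 in WT and -0.0027 to 0.33 in KO, where the fatty acid oxidation genes reach 0.57 to 0.68 (in KO 2 the points of the members and of the cytosolic ribosomal protein genes coincide).

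Genes of the same machinery with other symbols had values near those of the members. All 6 mitochondrial ribosomal protein genes not named Mrpl or Mrps were higher, and their median log2 fold change was 0.21. With DESeq2 size factors, upper-quartile scaling, total counts or sample quality weights 5 of the 6 were higher. Of these, Gadd45gip1, a large subunit protein gene, was at 10.7, 12.4 and 10.4 CPM in WT 1 to WT 3 and at 14, 14 and 14.5 CPM in KO 1 to KO 3. The groups did not overlap, and its log2 fold change was 0.34 (SE 0.13) with an unadjusted p of 0.0364 in edgeR's test. Without WT 3 its log2 fold change was 0.21. The KO libraries also lay above all WT libraries for the small subunit genes Ptcd3 (log2 fold change 0.28, and 0.14 without WT 3) and Chchd1 (0.24, and 0.16 without KO 3).

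All 12 mitochondrial translation factor genes were higher (11 with upper-quartile scaling or total counts), and their median log2 fold change was 0.18. Without WT 3, and likewise without KO 1, 9 of the 12 were higher, with a median of 0.13 each time. Gfm1, the elongation factor that moves the ribosome along the mRNA, was at 36.0, 34.9 and 31.4 CPM in WT 1 to WT 3 and at 41.0, 41.5 and 45.9 CPM in KO 1 to KO 3. Its log2 fold change was 0.33 (SE 0.11) with an unadjusted p of 0.0232 in edgeR's test, the only factor under 0.05. Tufm, the elongation factor that brings charged tRNA to the ribosome, had a log2 fold change of 0.32 (SE 0.13), and its groups did not overlap. Without WT 3 the log2 fold changes of Gfm1 and Tufm were 0.20 and 0.19.

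Of the 16 mitochondrial aminoacyl-tRNA synthetase genes, which charge the tRNAs, 13 were higher with a median of 0.15, and 0 had an unadjusted p under 0.05 in edgeR's test. The median was 0.049 without WT 3 and 0.050 without KO 1. Lars2, the leucyl-tRNA synthetase, stood apart. It was at 1397 CPM in WT 2, at 39575 CPM in KO 3 and at 22307 to 31171 CPM in the other libraries. The share of counts of the 45S ribosomal RNA gene Rn45s was also lowest in WT 2 (2.04%) and highest in KO 3 (10.4%), and its part in the Lars2 values was not tested.

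Genes of ribosome assembly and ribosomal RNA modification were higher in 18 of 21 cases, with a median of 0.11. Fastkd2, which acts on the RNA of the large subunit, had a log2 fold change of 0.40 (SE 0.16) and an unadjusted p of 0.0445 in edgeR's test. Without WT 3 Fastkd2 was at 0.25 and the median of this list was -0.023, with 10 genes positive, and without KO 1 or KO 3 it was 0.023 and 0.038, in that order. For replication and expression of mitochondrial DNA, 10 of 12 genes were higher with a median of 0.15 (0.038 without KO 1, and 0.090 without WT 2). Tfam, which packages mitochondrial DNA and starts its transcription, was at 21.3, 22.6 and 22.4 CPM in WT and at 25.4, 25.1 and 27.3 CPM in KO. Its groups did not overlap, with a log2 fold change of 0.23 (SE 0.10). The count table has 0 rows on mitochondrial DNA, so its own transcripts could not be analysed here.

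Of the 23 rows with symbols of import translocases, which carry proteins such as these into the organelle, 19 were higher with a median of 0.12. The rows include Tomm6os, which is an antisense transcript (log2 fold change -0.51), and the median of the list was -0.096 without KO 3, 0.010 without WT 3, 0.18 without WT 2 and 0.19 without KO 2. Chaperone, protease and membrane protein genes of mitochondria were higher in 17 of 18 cases, with a median of 0.24 (0.13 without KO 3, and 0.16 without WT 3). Of these, Hspa9, the mitochondrial Hsp70 chaperone, had a log2 fold change of 0.41 (SE 0.12).

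Of 11 regulators of mitochondrial gene expression, 8 were higher with a median of 0.057, which ran from -0.0087 (without KO 1) to 0.16 (without KO 3) with a library left out. Among them the coactivators Ppargc1a and Ppargc1b and the muscle regulator Perm1 had log2 fold changes of 0.85, 0.96 and 1.01, with KO libraries above all WT libraries. These 3 were named for the smallest p of the list, in which 3 genes were lower, down to -0.24. Ppargc1a was at 9.5, 7.60 and 12.2 CPM in WT 1 to WT 3 and at 19.2, 15.1 and 18.8 CPM in KO 1 to KO 3.

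Proteins of the cytosolic ribosome, which is built by a separate pathway, gave a contrasting list. Of 76 cytosolic ribosomal protein genes 8 were higher, the median log2 fold change was -0.080, and 0 had an unadjusted p under 0.05 in edgeR's test. Their median ran from -0.18 (without KO 2) to -0.032 (without KO 3) with a library left out. The number higher was 27 without KO 3, 24 without WT 1 and 1 without KO 2.

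**Figure D5:**
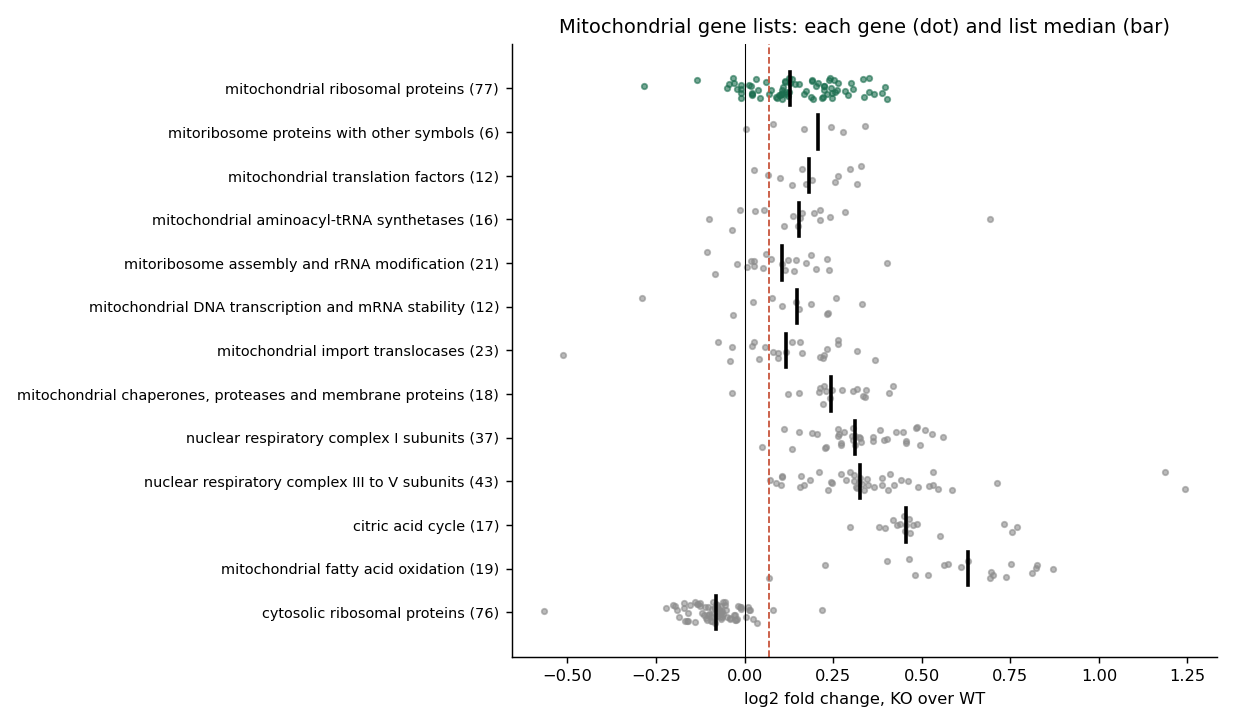
Log2 fold change of KO over WT for each tested gene (dots) of 13 lists, with the list median (black bar), the number of genes in brackets and the median of all genes tested (dashed line at 0.068). Medians run from -0.080 for cytosolic ribosomal proteins through 0.13 for mitochondrial ribosomal proteins to 0.63 for fatty acid oxidation.

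Sums of cell type markers were also set side by side for the groups. The 6 brown fat markers, among them the uncoupling protein gene Ucp1, summed to 382, 137 and 291 CPM in WT 1 to WT 3 and to 487, 566 and 636 CPM in KO 1 to KO 3, without overlap. Of these 6, Cox7a1 and Cox8b are also in the respiratory chain list, with its highest log2 fold changes (1.24 and 1.19). The 10 adipocyte markers summed to 702 to 1439 CPM in WT and 1433 to 2198 CPM in KO. All 11 macrophage markers had negative log2 fold changes, with sums of 2400 to 2768 CPM in WT and 806 to 1741 CPM in KO. The 8 cell cycle markers summed to 138 to 177 CPM in WT and 51.7 to 115 CPM in KO. The 8 cardiac muscle markers summed to 131 to 220 CPM in WT and 217 to 286 CPM in KO, and the 11 skeletal muscle markers to 14.7 to 116 CPM and 24.0 to 422 CPM. The sums of adipocyte, cardiac muscle, skeletal muscle, smooth muscle and endothelium markers overlapped between the groups. No marker of these lists was at 0 in any library, and their part in the differences between lists was not tested.

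The members were spread over 17 chromosomes, with 10 on chromosome 11, 8 on chromosome 17 and 7 on chromosome 6. Exons overlapped another gene for 10 of 77 members (13.0%), beside 13.3% of all genes tested. The overlap was widest for Mrps25 (58.3% of its exon bases, with Nr2c2 on the other strand), Mrpl41 (41.4%, with Dph7) and Mrpl24 (37.4%, with Rrnad1). The count settings given in the file header left out reads that lie in exons of more than 1 gene, so the values of these genes come from the rest of their exons.

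A head-to-head arrangement was common. For 27 of 77 members (35.1%) another gene on the opposite strand started within 1000 bases and was read away from it, beside 13.1% of all genes tested and 25% of the respiratory chain genes. Some pairs joined mitochondrial genes. Mrpl43 faced Peo1, the mitochondrial DNA helicase gene, with starts 116 bases apart, and Mrpl47 faced the complex I gene Ndufb5 at 308 bases. Mrps11 and Mrpl46, both members, had starts 42 bases apart and log2 fold changes of -0.13 (SE 0.21) and 0.24 (SE 0.21). Mrpl46 was at 8.23, 8.91 and 6.65 CPM in WT 1 to WT 3 and at 9.31, 7.59 and 11.2 CPM in KO 1 to KO 3, and its groups overlapped. Leaving out WT 3, KO 3 or KO 2 gave Mrpl46 log2 fold changes of 0.053, 0.092 and 0.37, in that order. The 24 tested partners that were not members had a median log2 fold change of 0.023, with 12 higher. The members with such a partner had a median of 0.14, and those without had 0.12.

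Promoter sequences from RefSeq (GRCm38.p6) were matched by symbol for 68 of the 77 members, giving 74 promoters of 300 bases, with 250 before and 50 after the start. They were searched on both strands for the cores of 3 motifs known from genes of mitochondria. The core of ETS factors such as GABP, CCGGAAG, was in 25 of 74 member promoters (33.8%). It was in 8.86% of all promoters in the table, 14.8% of those of genes tested, 20.6% of those of respiratory chain genes and 35.8% of those of cytosolic ribosomal protein genes. The NRF1 core GCGCATGC was in 10.8% of member promoters, beside 2.71% of all promoters, 4.48% of those of genes tested and 14.7% of those of respiratory chain genes. The YY1 core AAGATGGC was in 16.2%, beside 2.75%, 3.76% and 13.2%, and in 11.9% for cytosolic ribosomal protein genes. At least 1 of these 3 was in 50% of member promoters and 13.3% of all promoters. The share was 21.1% for genes tested, 41.2% for respiratory chain genes and 52.2% for cytosolic ribosomal protein genes. For comparison, CCAATCA was in 14.9% of member promoters, 7.82% of all and 9.25% of those of genes tested. In the same order GGGGCGGGG was in 20.3%, 11.4% and 19.5%, and TATAAA in 6.76%, 13.6% and 7.85%. The median GC content was 58.5% in member promoters, 52.7% in all promoters and 60% in those of genes tested.

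The 120 bases before the start are shown for 3 members, with the motif in capitals. Mrpl51 and Mrpl52 are shown because they lay at opposite ends of the large subunit in log2 fold change and hold the same ETS core, read on opposite strands. Mrpl9, chosen after its values were seen (log2 fold change 0.35, SE 0.19, with 0.22 without WT 3 and 0.13 without KO 3), is shown for the NRF1 core, which overlaps its own reverse complement within the letters marked. All are on the plus strand of GRCm38.p6, at chr6:125192080-125192199 for Mrpl51, chr14:54426789-54426908 for Mrpl52 and chr3:94443216-94443335 for Mrpl9.
Mrpl51: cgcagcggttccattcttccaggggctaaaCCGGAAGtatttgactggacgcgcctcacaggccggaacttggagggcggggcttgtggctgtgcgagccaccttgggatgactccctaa
Mrpl52: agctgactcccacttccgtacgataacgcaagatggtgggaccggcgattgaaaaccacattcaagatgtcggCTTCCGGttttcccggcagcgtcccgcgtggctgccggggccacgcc
Mrpl9: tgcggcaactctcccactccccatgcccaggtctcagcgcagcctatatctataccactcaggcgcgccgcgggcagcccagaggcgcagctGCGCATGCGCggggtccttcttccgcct

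Log2 fold changes were also set side by side for members with and without each motif. The 25 with the ETS core had a median of 0.12, with 20 higher, and the 43 without it had 0.19, with 39 higher. The medians were 0.12 for the 8 with the NRF1 core and 0.15 for the 60 without it. The 12 with the YY1 core had a median of 0.21 and the 56 without it 0.13. These are descriptions of letters in a window, and no test was made of them.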

How the data were processed

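Per the file headers, the deposited counts came from featureCounts 1.4.6-p4, run on exons of UCSC mm9 gene models and summed by symbol, with no option set for strand, read pairs or multi-mapping reads. Reads of near-identical copies can therefore be lost. The submitters' processing notes also name DESeq2, Subread, CASAVA and STAR, the last as version 3.0. The deposited summary of counting gave alignments per outcome, of which 32.6% to 36.9% were assigned to genes.

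Here the counts were tested with edgeR 4.0.16 in R 4.3.3 (quasi-likelihood test, two-sided, TMM scaling, filterByExpr with a minimum count of 10), with Benjamini-Hochberg adjustment over 15937 genes and a threshold of 0.05. CPM are TMM-scaled, mean log2 CPM used a prior count of 2, RPKM are CPM per kilobase of exon, and standard errors come from the F statistic. The fit was also run on simulated counts with changes larger than that of any member. Whether changes of the members' size can be found was not tested. Alternatives were other scalings and filters, DESeq2 1.42.0, limma-voom 3.58.1, a replicate block and leaving out libraries. No pair of libraries agreed within sampling noise.

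The members and gene lists were chosen with earlier results of these data known, so list counts and medians are descriptions. Named genes were Col15a1, the members with the 8 smallest p in each direction, the 5 highest and 5 lowest by RPKM, the Mrps18 paralogs, Mrps30, Mrps36, Mrpl12, members with overlapping exons and up to 3 genes per other list by p or, for markers, by level. Mrpl9, Mrpl14, Mrpl16, Mrpl43, Mrpl46, Mrps33 and Mrps34 were added after their values were seen.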

Additional observations from a re-analysis of the deposited data

How the results depend on the processing

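No member passed the adjusted threshold in any setting tried. DESeq2 called 63 of all genes tested, and leaving out both WT 2 and KO 3 gave 1. With all libraries edgeR called 0 under each scaling and filter, and limma-voom called 0. At an unadjusted p under 0.05 edgeR gave 1275 genes with TMM scaling. It gave 1232 with DESeq2 size factors, 1061 with upper-quartile scaling and 1217 with total counts. Leaving out both libraries was planned with their neuronal transcripts known. Members with an unadjusted p under 0.05 (2 as reported) were 3 with the stricter filter and with limma-voom, with or without sample quality weights. They were 1 with upper-quartile scaling, 1 without a filter on low counts and 0 without WT 2 and KO 3. With 1 library left out they were 0 to 1. The 1 member without WT 2 was higher in KO and the 1 without KO 1 was lower, with 0 without any other library. Members whose groups did not overlap (14 as reported, 18.2% beside 16.7% of all genes) were 5 with total counts (6.49% beside 16%) and 27 without WT 2 and KO 3 (20 above and 7 below, 35.1% beside 40.7%). With 1 library left out they were 8 (without WT 3, 10.4% beside 22.3%) to 22 (without WT 2, 28.6% beside 26.8%). Members higher were 61 with DESeq2 size factors, 59 with upper-quartile scaling, 58 with total counts and 56 with limma-voom with sample quality weights, instead of 66. The members' median ran from 0.035 to 0.18 over all settings, and stayed 0.032 to 0.12 above the median of all genes, beside 0.20 to 0.35 for the respiratory chain.

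Deviations of same-numbered libraries from their group means correlated at 0.43, -0.68 and -0.58 over genes. Those of WT 2 and KO 3, both rich in neuronal transcripts, correlated at 0.77. These values therefore cannot show whether replicate numbers pair the samples. With a replicate block edgeR called 0 genes, 0 members had an unadjusted p under 0.05, and the median was 0.12 with 66 higher.

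Among 40 named members, 22 kept their sign in every setting and 18 did not. With sample quality weights Mrpl33 was at 0.0015, Mrps18a at -0.053, Mrpl24 at 0.035, Mrps33 at -0.026, Mrps18c at -0.084, Mrpl14 at -0.014, Mrpl43 at -0.018 and Mrps34 at -0.074. Without WT 2 and KO 3, Mrps21 was at -0.049, Mrps18a at -0.096, Mrps18b at -0.086, Mrps18c at -0.11, Mrpl24 at 0.022, Mrps33 at -0.018, Mrpl14 at -0.070, Mrpl43 at -0.079, Mrps34 at -0.096 and Lars2 at -0.13. Mrps18c was at -0.0081 with DESeq2 size factors, -0.023 with upper-quartile scaling, -0.042 with total counts and -0.0076 in DESeq2, and Mrpl14, in the same order, at -0.0094, -0.019, -0.028 and -0.0075. Mrps34 was at -0.0023 with upper-quartile scaling and -0.017 with total counts. With 1 library left out the log2 fold changes ran from -0.18 to 0.015 for Mrpl19, -0.19 to 0.041 for Mrpl20, -0.10 to 0.039 for Mrpl27, -0.089 to 0.050 for Mrps16, -0.12 to 0.081 for Mrpl33, -0.0068 to 0.42 for Mrpl35, -0.094 to 0.17 for Mrps18a, -0.045 to 0.25 for Mrps18b, -0.17 to 0.091 for Mrps18c, -0.025 to 0.14 for Mrps30, -0.16 to 0.068 for Mrpl24, -0.13 to 0.51 for Mrpl41, -0.35 to 0.68 for Mrpl16, -0.26 to 0.50 for Mrps33, -0.10 to 0.11 for Mrpl14, -0.045 to 0.20 for Mrpl43 and -0.13 to 0.11 for Mrps34. The cause was not tested. Mrpl14, the member with the fewest counts, had 122 to 156 per library, and counting error was not separated from the spread between animals.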
